A study of Homo sapiens with 10 samples.

Results

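The genes described here are CCNE2, CCNA2, TYMS and UHRF1, which E2F transcription factors switch on for S phase, and RBL2, a repressor of E2F-controlled genes. They were chosen by name from the platform's probe annotation. Each had 1 probe set, so 5 genes of 14884 named on the array are described, and 5 of 5 passed the filter on dim probe sets. The study measured HCT116, a human cell line derived from a colorectal carcinoma, on 10 arrays. Per the labels, ORC1B14 and ORC1BP32 are ORC1 mutant lines, ORC2B2 and ORC2BP8 are ORC2 mutant lines, and WT is the wild-type line. All were kept at 37 °C in 5% CO2, each with 2 arrays titled biological replicates, and no treatment is named. The labels give neither the alleles nor the number of clones behind a line. Each mutated gene is represented by 2 lines only. They also do not say whether replicates were separate cultures, and the p-values therefore reflect the spread among these arrays alone, which may be technical. The origin recognition complex, to which the ORC1 and ORC2 proteins belong, marks the sites where DNA replication starts. Of ORC1 to ORC6, 0 were named in the annotation used here, so the labels were not checked against the mutated genes.

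E2F factors bind promoters of genes needed to enter S phase and to copy DNA. In resting and early G1 cells the pocket proteins RB1, RBL1 and RBL2 hold these genes silent. RBL2 does so mainly with E2F4 and the MuvB proteins, in the DREAM complex, until cyclin-dependent kinases phosphorylate the pocket proteins. CCNE2 (cyclin E2) activates CDK2 at the G1/S transition, and CCNA2 (cyclin A2) activates CDK2 and CDK1 in S and G2. TYMS (thymidylate synthase) makes the thymidine nucleotide for DNA synthesis. UHRF1 binds hemimethylated DNA behind the replication fork and brings in the maintenance methyltransferase DNMT1.

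The promoters are shown because the 4 S-phase genes are grouped by their control through such sites. RefSeq promoter windows (GRCh38.p14) run from 250 bases before to 50 bases after a gene's start. They were read for 4 of the 5 genes. CCNE2 was left out of the search, so nothing is known here of matches in its promoter. The E2F letters searched on both strands were TTTCCCGC, TTTGGCGC, TTTCGCGC and TTTGCCGC. The letters searched for the CHR element, which the MuvB protein LIN54 binds, were TTTGAA and CTTGAA. The 2 sets shared no hit, and capitals below mark every hit. UHRF1 has 3 RefSeq windows and RBL2 has 2, of which the first along the chromosome is shown. The windows are chr4:121823834-121824133 (minus strand) for CCNA2, chr18:657403-657702 (plus) for TYMS, chr19:4909251-4909550 (plus) for UHRF1 and chr16:53434221-53434520 (plus) for RBL2.
CCNA2: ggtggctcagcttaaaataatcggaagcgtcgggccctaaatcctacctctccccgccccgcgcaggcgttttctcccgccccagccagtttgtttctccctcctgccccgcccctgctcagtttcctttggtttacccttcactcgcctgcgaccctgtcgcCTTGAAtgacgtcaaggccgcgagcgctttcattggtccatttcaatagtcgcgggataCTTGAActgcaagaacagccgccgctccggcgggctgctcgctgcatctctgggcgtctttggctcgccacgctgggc
TYMS: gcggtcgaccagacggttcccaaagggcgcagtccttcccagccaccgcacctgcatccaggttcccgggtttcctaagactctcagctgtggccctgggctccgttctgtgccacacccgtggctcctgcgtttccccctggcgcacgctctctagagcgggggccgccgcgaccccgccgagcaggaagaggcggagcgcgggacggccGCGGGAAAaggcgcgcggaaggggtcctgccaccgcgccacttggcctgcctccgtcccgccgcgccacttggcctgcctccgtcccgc
UHRF1: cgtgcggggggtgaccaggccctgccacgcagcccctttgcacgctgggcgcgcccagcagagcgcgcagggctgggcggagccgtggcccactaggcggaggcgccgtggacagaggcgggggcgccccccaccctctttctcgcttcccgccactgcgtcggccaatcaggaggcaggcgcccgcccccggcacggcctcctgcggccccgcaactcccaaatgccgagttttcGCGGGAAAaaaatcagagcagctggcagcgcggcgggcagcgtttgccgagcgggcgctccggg
RBL2: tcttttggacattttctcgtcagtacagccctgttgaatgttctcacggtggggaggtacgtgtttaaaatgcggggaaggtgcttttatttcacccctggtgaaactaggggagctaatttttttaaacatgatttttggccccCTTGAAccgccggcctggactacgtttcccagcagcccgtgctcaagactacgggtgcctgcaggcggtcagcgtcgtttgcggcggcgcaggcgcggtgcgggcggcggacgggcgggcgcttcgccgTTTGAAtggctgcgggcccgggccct
The TYMS and UHRF1 windows each held 1 E2F match, TTTCCCGC on the minus strand, which reads GCGGGAAA in the lines above, and 3.31% of 35116 RefSeq promoter windows held at least 1. The second UHRF1 window held TTTCGCGC, and the third held none. The CCNA2 window had 2 CHR matches, both CTTGAA, and the RBL2 window had 1 CTTGAA and 1 TTTGAA, where 23.9% of windows held a CHR match. No E2F match was found in the CCNA2 and RBL2 windows, and the second RBL2 window held neither. The letters CCAAT, the box bound by NF-Y and left in lower case here, occurred once in the CCNA2 window (minus strand), once in the first UHRF1 window and in neither the TYMS nor the first RBL2 window, and 34.6% of windows held them on either strand. A match is a description of letters, not a binding site. Other forms of these sites were not searched, so a window without a match may still hold one.

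In all 4 mutant lines the S-phase genes stood above WT and RBL2 stood below it. The 4 lines are set against the same 2 WT arrays, so their agreement is not 4 separate repeats. Averaged over the 4 mutant lines and set against WT, CCNE2 rose by 0.96 (SE 0.19), TYMS by 0.85 (SE 0.17) and UHRF1 by 0.71 (SE 0.14) in log2 units. These are 1.94-fold, 1.81-fold and 1.64-fold (limma adjusted p = 0.0476, 0.0457 and 0.0487). CCNA2 stood at 0.22 (SE 0.13, adjusted p = 0.413) and did not pass the test, with a 95% interval of -0.06 to 0.51. RBL2 stood at -0.77 (SE 0.16, adjusted p = 0.0505), on the other side of the threshold of 0.05 by a small margin. Thus 3 of 5 genes were called in this comparison, where 1.02% of 10797 genes were called, 0.417% higher and 0.602% lower. For each of the 5 genes the 8 mutant arrays did not overlap the 2 WT arrays, 4 genes above and RBL2 below, a pattern shown by 7.96% and 6.93% of all genes. The members were chosen with such results known, so these counts describe them and are no independent evidence. The calls lie close to the threshold. That of CCNE2 was lost without either WT, ORC1BP32 or ORC2B2 array or ORC2BP8 replicate 2 (0.75 to 1.16 over all left-out arrays, highest adjusted p = 0.381). Those of TYMS (0.62 to 1.08) and UHRF1 (0.68 to 0.74) were lost without these and without either ORC1B14 array (0.382 and 0.303), and all 3 were lost after centring the arrays or without the filter. The arrays with replicate number 1 had higher medians than those with number 2, for which the labels give no reason. Within replicates 1 and 2 the differences of the 4 lines from WT were 0.57 to 1.48 and 0.47 to 1.33 for CCNE2, 0.05 to 0.40 and 0.17 to 0.34 for CCNA2, and 0.83 to 1.33 and 0.68 to 0.85 for TYMS. They were 0.54 to 0.88 and 0.48 to 0.90 for UHRF1 and -1.31 to -0.41 and -1.67 to -0.42 for RBL2, so each gene kept its direction in both. With the replicate number as a block RBL2 was also called (-0.77, limma adjusted p = 0.017), with 709 of all genes called in place of 110. RBL2 was called without ORC1B14 replicate 2 or ORC2BP8 replicate 1 (-0.81 in both, adjusted p = 0.0449 and 0.0333).

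**Figure D1:**
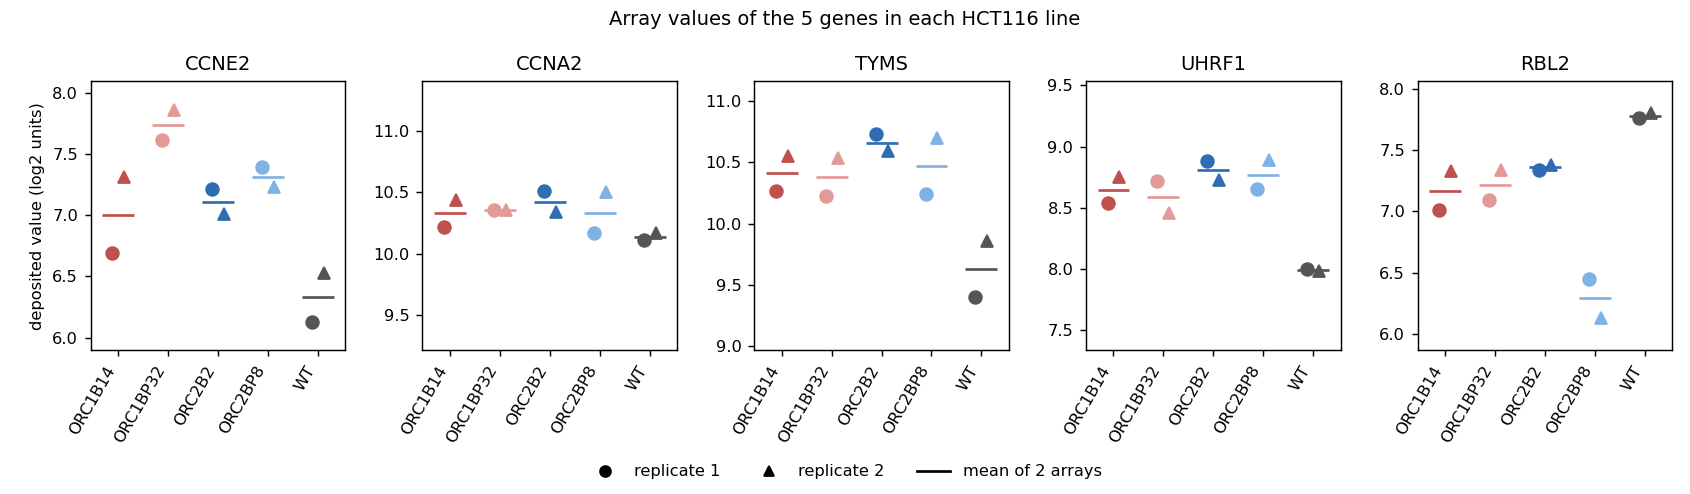
Deposited values, read as log2 (vertical axes, the same span of log2 units in each panel), of CCNE2, CCNA2, TYMS, UHRF1 and RBL2 on each array. Lines run along the horizontal axis, with circles for replicate 1, triangles for replicate 2 and a bar at the mean of 2 arrays. WT lies lowest for the first 4 genes and highest for RBL2, and RBL2 is lowest in ORC2BP8, at 6.45 and 6.13.

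CCNE2, the cyclin that starts S phase with CDK2, was the S-phase gene with the widest range between lines. Its values (probe set 17079293) in replicates 1 and 2 were 6.69 and 7.31 in ORC1B14, 7.61 and 7.86 in ORC1BP32, 7.21 and 7.01 in ORC2B2, 7.39 and 7.23 in ORC2BP8, and 6.13 and 6.53 in WT. The lowest mutant array, ORC1B14 replicate 1, lay above the higher WT array. From highest to lowest the line means were ORC1BP32 at 7.73 ± 0.178, ORC2BP8 at 7.31 ± 0.113, ORC2B2 at 7.11 ± 0.140, ORC1B14 at 7.0 ± 0.434 and WT at 6.33 ± 0.288 (SD, n = 2 each). ORC2BP8 and ORC2B2 (0.20, 95% interval -0.34 to 0.74) did not differ beyond their error. The ORC1B14 arrays spanned both ORC2B2 values. In ORC1BP32 CCNE2 stood 1.4 above WT (SE 0.24, 2.64-fold), with an unadjusted p smaller than that of all but 0.102% of genes, yet without a call (limma adjusted p = 0.114). In ORC1B14, ORC2B2 and ORC2BP8 it stood 0.67, 0.78 and 0.98 above WT. ORC1B14 stood 0.73 below ORC1BP32 (SE 0.24, limma adjusted p = 0.756), and the arrays of the 2 lines did not overlap. Among all genes, 13.6% had every ORC1B14 array below ORC1BP32 and 17.2% had every one above.

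CCNA2, the cyclin of S phase and G2, varied least. Its values (probe set 16979515) were 10.22 and 10.44 in ORC1B14, 10.36 and 10.36 in ORC1BP32, 10.51 and 10.34 in ORC2B2, 10.17 and 10.50 in ORC2BP8, and 10.11 and 10.17 in WT. The mutant arrays lay at or above the WT values, and ORC2BP8 replicate 1 equalled the higher WT array to 2 decimals. The differences from WT were 0.19, 0.22, 0.28 and 0.20 in ORC1B14, ORC1BP32, ORC2B2 and ORC2BP8 (SE 0.16 in each), and no line passed the test (limma adjusted p = 0.57 to 0.723). The intervals reached from -0.17 to 0.64 over the 4 lines, so a rise of CCNA2 of the size seen in TYMS (0.76 to 1.03) lay outside them. The line means ran from ORC2B2 at 10.42 ± 0.123 through ORC1BP32 at 10.36 ± 0.00276, ORC2BP8 at 10.34 ± 0.237 and ORC1B14 at 10.33 ± 0.153 to WT at 10.14 ± 0.0383 (SD, n = 2 each). No neighbours in that order differed beyond their error.

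TYMS, which supplies thymidine nucleotides, was higher in mutant lines to a similar degree in each. Its values (probe set 16850477) were 10.27 and 10.55 in ORC1B14, 10.23 and 10.54 in ORC1BP32, 10.73 and 10.59 in ORC2B2, 10.24 and 10.70 in ORC2BP8, and 9.40 and 9.86 in WT. The WT arrays differed from each other by more than the distance from the higher WT array to the lowest mutant array, and the groups did not overlap. TYMS stood 0.78, 0.76, 1.03 and 0.84 above WT in ORC1B14, ORC1BP32, ORC2B2 and ORC2BP8 (SE 0.22), and none of the 4 was called alone (limma adjusted p = 0.12, 0.285, 0.0791 and 0.106). Line means were 10.66 ± 0.103 in ORC2B2, 10.47 ± 0.329 in ORC2BP8, 10.41 ± 0.197 in ORC1B14, 10.39 ± 0.217 in ORC1BP32 and 9.63 ± 0.324 in WT (SD, n = 2 each). The ORC2B2 arrays lay above all ORC1B14 and ORC1BP32 arrays, and the other pairs of mutant lines overlapped. How many of all genes show such a pattern was not counted.

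UHRF1, the reader of hemimethylated DNA, had the tightest WT pair of the S-phase genes. Its values (probe set 16857258) were 8.54 and 8.75 in ORC1B14, 8.72 and 8.46 in ORC1BP32, 8.88 and 8.73 in ORC2B2, 8.65 and 8.89 in ORC2BP8, and 8.0 and 7.98 in WT. Every mutant array lay clear of both WT arrays. UHRF1 stood 0.65, 0.60, 0.81 and 0.77 above WT in ORC1B14, ORC1BP32, ORC2B2 and ORC2BP8 (SE 0.18), without a call in a single line (limma adjusted p = 0.125, 0.31, 0.0928 and 0.0843). Line means were 8.81 ± 0.106 in ORC2B2, 8.77 ± 0.168 in ORC2BP8, 8.65 ± 0.144 in ORC1B14, 8.59 ± 0.184 in ORC1BP32 and 7.99 ± 0.0133 in WT (SD, n = 2 each), and neighbours among the mutant lines did not differ beyond their error. The 20 tested genes nearest to UHRF1 on chromosome 19 had a median of 0.22 in the mean of the 4 mutant lines against WT, and 18 of them stood above 0. UHRF1 stood 0.49 above that median. For CCNE2, CCNA2 and TYMS the medians of the nearest tested genes were -0.07, -0.19 and -0.06 (20, 20 and 12 genes).

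RBL2, the repressor, was lower in mutant lines, and by far the lowest in ORC2BP8. Its values (probe set 16818980) were 7.01 and 7.33 in ORC1B14, 7.09 and 7.34 in ORC1BP32, 7.34 and 7.38 in ORC2B2, 6.45 and 6.13 in ORC2BP8, and 7.76 and 7.80 in WT. The ORC2BP8 arrays overlapped no other line, and no mutant array reached the WT values. Among all genes, 16% had every ORC2BP8 array below ORC2B2 and 20.8% had every one below WT. The share below all other lines was not counted. RBL2 fell by 1.49 in ORC2BP8 against WT (SE 0.20, 2.81-fold lower, limma adjusted p = 0.00921), where 0.685% of all genes were called lower. This was the only one of the 5 genes called in a single line. The call was lost without either WT array or ORC2BP8 replicate 2 (-1.65 to -1.33 over all left-out arrays, highest adjusted p = 0.0912). In ORC1B14, ORC1BP32 and ORC2B2 the differences from WT were -0.61, -0.56 and -0.42 (SE 0.20) with adjusted p = 0.171, 0.394 and 0.469, so RBL2 was not called there. From lowest to highest, the line means were ORC2BP8 at 6.29 ± 0.226, ORC1B14 at 7.17 ± 0.225, ORC1BP32 at 7.21 ± 0.174, ORC2B2 at 7.36 ± 0.0235 and WT at 7.78 ± 0.0295 (SD, n = 2 each). ORC1BP32 and ORC1B14 did not differ beyond their error. In a comparison added after the data were seen, ORC2BP8 stood 1.07 below ORC2B2 (SE 0.20, adjusted p = 0.0794), which did not pass the threshold. In the mean of ORC1B14, ORC1BP32 and ORC2B2, also added later, RBL2 stood at -0.53 against WT (SE 0.16, adjusted p = 0.149). There CCNE2, TYMS and UHRF1 stood at 0.95, 0.86 and 0.69 (adjusted p = 0.0628, 0.0599 and 0.0635).

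**Figure D2:**
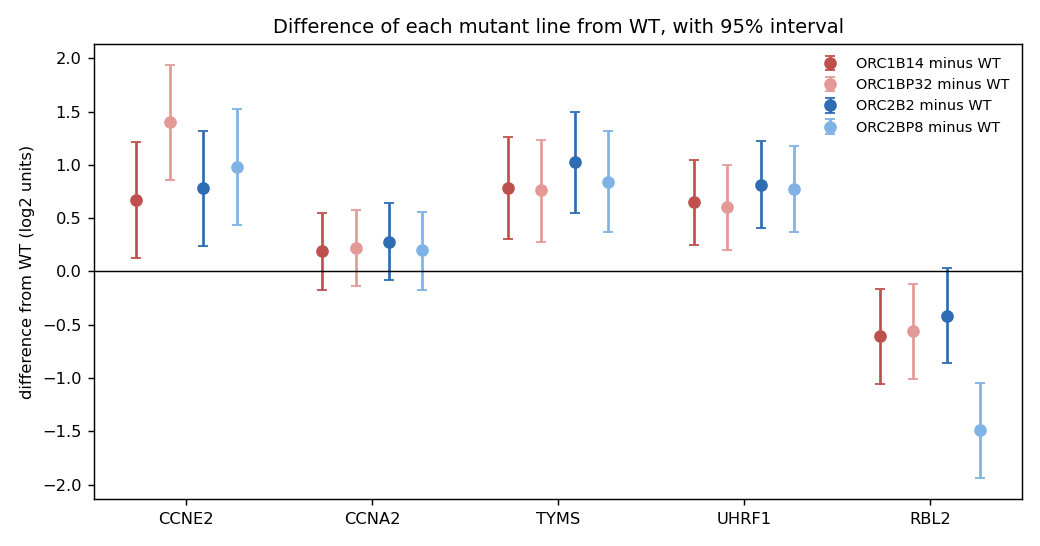
Difference from WT in log2 units (vertical axis) of each gene (horizontal axis) in ORC1B14, ORC1BP32, ORC2B2 and ORC2BP8, with the 95% interval of the limma fit, not adjusted for the number of genes tested, as bars. CCNE2, TYMS and UHRF1 lie above 0 in each line, the CCNA2 intervals include 0, and RBL2 lies at -1.49 in ORC2BP8 against -0.61 to -0.42 in the other mutant lines.

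RBL2 lies on the long arm of chromosome 16, inside a stretch of neighbouring genes from ITFG1 to DBNDD1 that had lower values in ORC2BP8. The stretch was delimited in these data, so its values are a description. Its other 221 tested genes had a median of -0.26 in ORC2BP8 against WT, with 76% below 0, and the other 304 tested genes of the chromosome had a median of 0.09. In ORC1B14, ORC1BP32 and ORC2B2 the medians of the stretch were 0.10, 0.13 and 0.07. Within replicate 1 and replicate 2 the ORC2BP8 median was -0.32 and -0.25, and RBL2 stood at -1.31 and -1.67. RBL2 thus stood 1.23 below the median of the stretch in ORC2BP8, with 6 of the 221 genes lower still. It also stood 0.71, 0.69 and 0.49 below that median in ORC1B14, ORC1BP32 and ORC2B2. The part of the stretch in the low RBL2 value of ORC2BP8 was not tested.

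**Figure D3:**
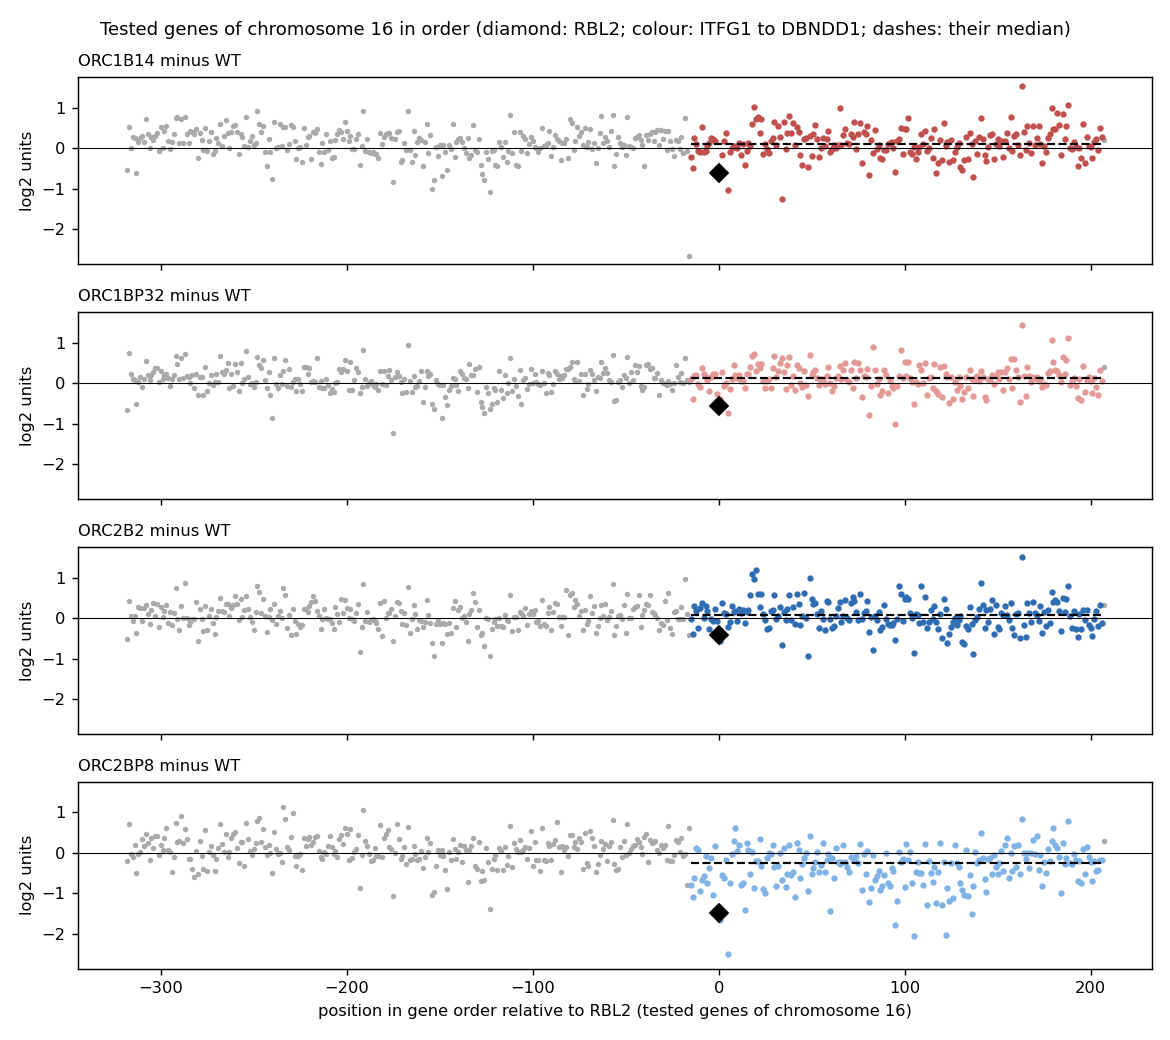
Difference from WT in log2 units (vertical axes) of the tested genes of chromosome 16 in chromosomal order (horizontal axis, position counted in genes from RBL2), 1 panel per mutant line. Coloured points are genes from ITFG1 to DBNDD1, grey points the rest of the chromosome, the dashed line the median of the coloured genes without RBL2 and the diamond RBL2. The median lies at -0.26 in ORC2BP8 and between 0.07 and 0.13 in the other lines, with RBL2 below it in all 4.

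Of the 20 tested genes nearest to RBL2, 16 stood below 0 in ORC2BP8 (median -0.56) and 8, 7 and 9 did in ORC1B14, ORC1BP32 and ORC2B2. The genes on either side of RBL2, chosen after their values were seen, followed it in direction in every mutant line. CHD9, a chromodomain helicase gene, stood at -0.60, -0.28, -0.08 and -1.44 in ORC1B14, ORC1BP32, ORC2B2 and ORC2BP8. AKTIP, which encodes an AKT-interacting protein, stood at -0.57, -0.39, -0.57 and -1.65 in the same order. The noncoding RNA gene CRNDE, 5 tested genes away, had the lowest value of the 20 in ORC2BP8, at -2.50, and stood at -1.03, -0.74 and -0.22 in ORC1B14, ORC1BP32 and ORC2B2.

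The mean of both ORC1 lines and the mean of both ORC2 lines were each compared with WT. These comparisons share the WT arrays. In the ORC2 mean 3 of 5 genes were called, where 1.07% of all genes were, 0.296% higher and 0.769% lower. TYMS rose by 0.94 (SE 0.19, limma adjusted p = 0.0441), UHRF1 rose by 0.79 (SE 0.16, adjusted p = 0.0441) and RBL2 fell by 0.95 (SE 0.18, adjusted p = 0.0361). CCNE2 stood at 0.88 (SE 0.21, adjusted p = 0.0703) and CCNA2 at 0.24. The RBL2 value averages -0.42 in ORC2B2 and -1.49 in ORC2BP8. All 3 calls were lost without either WT, either ORC1BP32 or either ORC2B2 array or without ORC2BP8 replicate 2 (highest adjusted p = 0.342 for TYMS, 0.266 for UHRF1 and 0.224 for RBL2), and after centring the arrays. Those of TYMS and UHRF1 were also lost without the filter. In the ORC1 mean 0 of 5 genes were called by limma, where 0.269% of all genes were. CCNE2 stood at 1.04 (adjusted p = 0.067), TYMS at 0.77 (0.102), UHRF1 at 0.63 (0.107), CCNA2 at 0.21 (0.51) and RBL2 at -0.59 (0.148). At an unadjusted p under 0.05, 4 of 5 genes differed in the ORC1 mean and 4 in the ORC2 mean, CCNA2 being the exception in both, where 16.3% and 15.2% of all genes did.

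In single lines 1 of the 5 genes was called in ORC2BP8 (0.935% of all genes) and 0 in ORC1B14 (0.583%), ORC1BP32 (0.0185%) and ORC2B2 (0.333%). At an unadjusted limma p under 0.05 the counts were 4 in ORC1B14 (17% of all genes), 4 in ORC1BP32 (10.1%), 3 in ORC2B2 (11.7%) and 4 in ORC2BP8 (14.6%). CCNA2 reached that level in no line and RBL2 did not in ORC2B2.

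Between the ORC1 lines and the ORC2 lines 0 of 5 genes were called by limma (0.0463% of all genes). RBL2 stood 0.37 higher in the ORC1 lines than in the ORC2 lines (95% interval 0.05 to 0.68, adjusted p = 0.627), the only one of the 5 at an unadjusted p under 0.05 (6.96% of all genes). Its ORC1 arrays, at 7.01 to 7.34, lay inside the ORC2 range of 6.13 to 7.38. CCNE2 stood 0.16 higher (-0.22 to 0.54), while CCNA2 stood at -0.03 (-0.29 to 0.22), TYMS at -0.17 (-0.50 to 0.17) and UHRF1 at -0.17 (-0.45 to 0.12). The intervals allow differences of up to these bounds. The 2 lines of a mutated gene were compared after the data were seen, with 0 of 5 genes called by limma between ORC1B14 and ORC1BP32 (0.0185% of all genes) and 0 between ORC2BP8 and ORC2B2 (0.222%). At an unadjusted p under 0.05 CCNE2 differed in the first pair (5.32% of all genes) and RBL2 in the second (5.46%).

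Other genes of the pathway were read from lists of textbook members, in the mean of the 4 mutant lines against WT, where the median of all genes was 0.04 and 55.4% stood above 0. At an unadjusted limma p under 0.05, 17.3% of all genes differed, 8.76% higher and 8.51% lower. Of 7 tested E2F factors and partners 6 stood above 0 (median 0.25), and 1 was called. E2F1, an activating E2F and itself a target of E2F, rose by 0.91 (SE 0.17, limma adjusted p = 0.0366). E2F2, another activator, stood at 0.69 (adjusted p = 0.0992), while E2F8, an atypical repressor, and TFDP2, a dimer partner, stood at 0.02 and -0.15. Among 9 pocket proteins and MuvB-related genes other than RBL2, 8 stood above 0 (median 0.28) and 1 was called. MYBL2, which takes the place of the pocket protein on the MuvB core in cycling cells, rose by 1.28 (SE 0.24, adjusted p = 0.0391). LIN54, the DNA-binding MuvB subunit, stood at 0.41, the histone-binding subunit RBBP4 at 0.02 and DYRK1A, a kinase that promotes DREAM assembly, at -0.13. The other pocket protein genes, named after their values were seen, did not show the RBL2 pattern. RB1 stood at 0.01, 0.27, 0.27 and -0.18 and RBL1 at -0.15, 0.36, 0.54 and 0.35 in ORC1B14, ORC1BP32, ORC2B2 and ORC2BP8, against -0.61, -0.56, -0.42 and -1.49 for RBL2. A difference between these genes was not tested.

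Of 9 tested G1/S cyclins and kinases 7 stood above 0 (median 0.43) and 0 were called by limma, with 5 higher at an unadjusted p under 0.05. CDC25A, the phosphatase that activates CDK2, stood at 0.85 and the D-type cyclin gene CCND3 at 0.72 (adjusted p = 0.0589 for both). CDK6 stood at -0.04 and CCND2 at -0.10. CCNE1, the other E-type cyclin gene and named after its values were seen, stood at 0.53 (adjusted p = 0.129), against 0.96 for CCNE2. Of the CDK inhibitors only CDKN2A was named (1 of 7), and it stood at -0.18. In deoxynucleotide synthesis, the pathway of TYMS, 10 of 10 tested genes stood above 0 (median 0.42) and 1 was called. DCTPP1, a pyrophosphatase that clears deoxycytidine triphosphate, rose by 0.79 (SE 0.16, adjusted p = 0.0482). RRM2, the small subunit of ribonucleotide reductase, stood at 0.65 (adjusted p = 0.0674), while its paralog RRM2B and the dUTP hydrolase DUT stood at 0.03 and 0.02. Around UHRF1, 5 of 9 tested genes of maintenance methylation and chromatin assembly stood above 0 (median 0.09) and 0 were called, with 2 higher at an unadjusted limma p under 0.05. ASF1B, a histone chaperone, stood at 0.64, the histone methyltransferase SUV39H1 at 0.55, and the demethylating enzymes TET2 and TET1 at -0.05 and -0.18. DNMT1, the enzyme that UHRF1 recruits, was named after its values were seen and stood at 0.50, 0.49, 0.51 and 0.42 in ORC1B14, ORC1BP32, ORC2B2 and ORC2BP8 (adjusted p = 0.0683 in their mean).

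Of 22 other tested E2F-controlled S-phase genes 22 stood above 0 in the mean of the 4 mutant lines, with a median of 0.64, and also in each single line. The 4 lines share the WT arrays, so this agreement is not 4 separate repeats. Of the 22 genes 3 were called in the mean. MCM4 rose by 1.07 (SE 0.15, limma adjusted p = 0.0134) and CDC6, a loader of the MCM helicase, by 0.98 (SE 0.14, adjusted p = 0.0135). MCM2, another subunit of that helicase and named after its values were seen, rose by 1.09 (adjusted p = 0.0438). GINS2, part of the replicative helicase, stood at 1.33 and the helicase subunit MCM5 at 1.15 (adjusted p = 0.0589 for both), while EZH2 stood at 0.15 and CDCA7 at 0.14. After quantile normalization 8 of the 22 were called, where 204 of all 10797 genes were, against 110 without it. Of 20 tested G2/M genes with CHR elements 20 stood above 0 (median 0.44) and 1 was called, FOXM1, a transcription factor of the late cell cycle, which rose by 0.76 (SE 0.14, adjusted p = 0.0361). CCNF, which encodes cyclin F, stood at 0.79 (adjusted p = 0.0506), and CDC25B and ECT2 at 0.06 and 0.05. CCNA2, at 0.22, lay below the medians of both these lists.

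Genes of quiescence and FOXO control, a setting in which RBL2 is also known to be high, were mostly on the RBL2 side. Of 16 tested genes 15 stood below 0 (median -0.31), and 0 were called by limma, with 5 lower at an unadjusted p under 0.05. The lowest were MXI1, an antagonist of MYC, at -0.71 and the unconventional cyclin gene CCNG2 at -0.66 (adjusted p = 0.104 and 0.162). KLF6 and FOXO4 stood at 0.17 and -0.04. Of 9 tested p53 targets 4 stood above 0 (median -0.07) and 0 were called by limma in this mean, with 1 higher and 3 lower at an unadjusted p under 0.05. The stress gene SESN2 stood at -0.89 and fell in the ORC2 mean by 1.18 (adjusted p = 0.0394). GDF15 stood at -1.26, the apoptosis gene BAX at 0.74 and TIGAR at 0.40. Without line ORC2BP8 in the mean, where 71 of all genes were called, 1 E2F factor and 2 of the other S-phase genes were called, and 0 genes of the MuvB, nucleotide and G2/M lists were called. After centring the arrays, where 63 of all genes were called, 2 of the other S-phase genes were called and 0 of the E2F, MuvB, nucleotide, G2/M, quiescence and p53 lists.

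**Figure D4:**
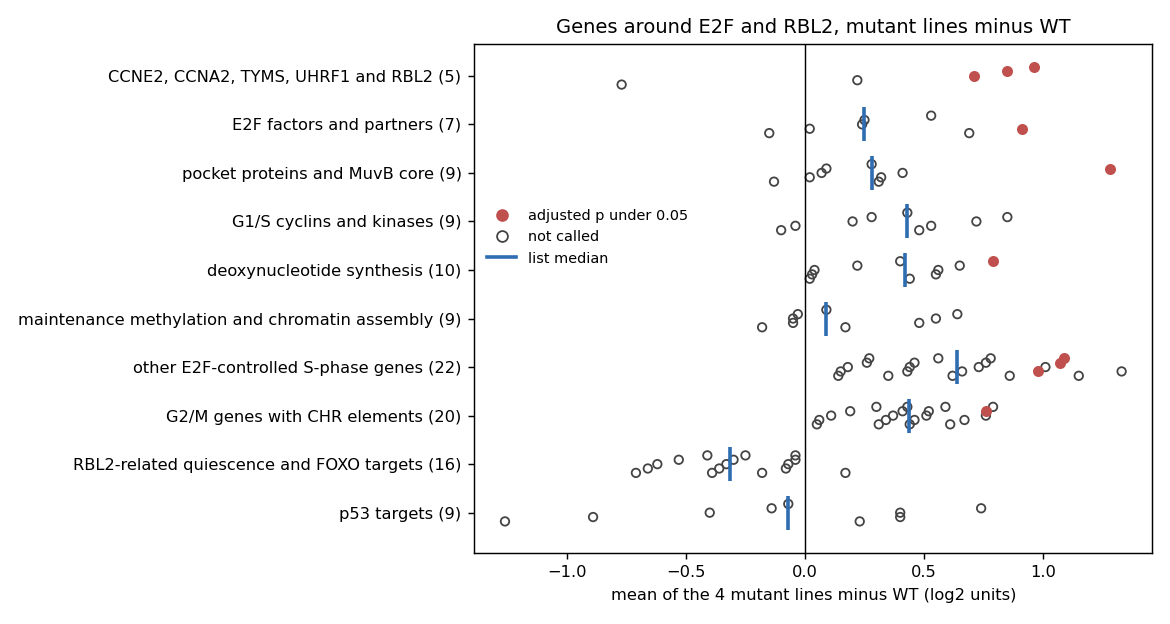
Difference between the mean of the 4 mutant lines and WT in log2 units (horizontal axis) for each tested gene of 10 groups (rows, with the number tested), filled where the limma adjusted p was under 0.05, and with a bar at the list median. The 22 other S-phase genes lie to the right of 0 with a median of 0.64, and 15 of 16 quiescence and FOXO genes lie to the left, as RBL2 does at -0.77.

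The genes whose log2 profile was closest to each member over the 10 arrays were found by the root mean square difference after centring each profile on its own mean. TYMS lay closest to CDC6 (0.108), RAD54L, a recombination gene (0.121), the centromere gene CENPO (0.131) and WDR76 (0.131), where TYMS itself varied by 0.395 about its mean. CDC6 stood at 0.88, 0.93, 1.12 and 1.01 in ORC1B14, ORC1BP32, ORC2B2 and ORC2BP8. UHRF1 lay closest to NUDC (0.0973), SRM, which encodes spermidine synthase (0.0987), NDOR1 (0.117) and RANBP1 (0.118), with 0.310 about its own mean. CCNE2 had looser matches, MASTL, a mitotic kinase gene (0.239), ROMO1 (0.247), INSIG1 (0.260) and the helicase gene BRIP1 (0.267), against 0.493 about its own mean. CCNA2, whose own value was only 0.136, lay closest to IL4I1 (0.0394), the importin gene KPNB1 (0.0459), SRRT (0.0630) and RMC1 (0.0704). RBL2, at 0.501 about its mean, lay closest to SEL1L (0.139), its chromosomal neighbour CHD9 (0.174), WDR59 (0.177) and SKIC3 (0.181). Only CHD9 is placed by position here. Whether SEL1L, WDR59 or SKIC3 also lies in the chromosome 16 stretch from ITFG1 to DBNDD1 was not examined. SEL1L stood at -0.61, -0.44, -0.43 and -1.20 in ORC1B14, ORC1BP32, ORC2B2 and ORC2BP8. The arrays of a line share that line's other differences, and these distances have no test.

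Array medians were 3.94 to 3.96 on the replicate 1 arrays and 3.87 to 3.89 on the replicate 2 arrays, and each of the 5 genes lay above the median of every array, CCNE2 in WT replicate 1 being nearest to it (at the 76.2th percentile of its array). Of 9 named colorectal epithelial markers 7 were above the array medians on all arrays, EPCAM at 9.75 to 10.46 and KRT19 at 9.27 to 10.57 among them, and LGR5 and CEACAM5 were below on all. The mean of the 9 markers was 6.45 to 6.59 in ORC1B14, 6.32 to 6.39 in ORC1BP32, 6.33 to 6.56 in ORC2B2, 6.38 to 6.41 in ORC2BP8 and 6.12 to 6.30 in WT. Its part in the differences from WT was not tested. Of the 7 tested markers 5 stood above 0 in the mean of the 4 mutant lines (median 0.21), and KRT20, a keratin of the differentiated gut lining, rose by 1.31 in the ORC2 mean (limma adjusted p = 0.0441), with 1.99 in ORC2B2 and 0.63 in ORC2BP8. In the mean of the 4 mutant lines KRT20 and KRT19 stood at 0.82 and 0.55, and EPCAM and KRT8 at -0.14 and -0.21. The fibroblast markers DCN and LUM, the blood marker CD14 and the hepatocyte marker ALB lay below the median of every array, and 5 of 6 hepatocyte and kidney markers lay above it. Of the 5 tested, PAX2 and LHX1 stood highest against WT, at 0.53 and 0.35, and TTR and PAX8 lowest, at 0.05 and -0.19, with 0 called by limma and 1 higher at an unadjusted p under 0.05.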

How the data were processed

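Total RNA of 5 HCT116 lines was hybridised to Affymetrix arrays. The authors' deposited table holds log2 values of 53617 probe sets on 10 arrays. Affymetrix Expression Console was used, per the submitters' processing notes. The sources used here state no normalization, annotation version or log base. The values (minimum 1.45) were read as log2 and used without further scaling. Array medians lay between 3.87 and 3.96, and 0 pairs of arrays were identical. The platform annotation paired 16098 probe sets with 1 symbol, and 37519 were unnamed here.

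Probe sets at or above the array median on at least 2 arrays were kept (11554), and the brightest stood for a gene, which left 10797 genes. Line means were compared with limma 3.58.1 in R 4.3.3 (lmFit, eBayes with an intensity trend, all 10 arrays, 5 residual and 5.83 prior degrees of freedom), with two-sided p-values adjusted by Benjamini-Hochberg over all genes and a threshold of 0.05. The code was tested on simulated data. The members, gene lists and tests were chosen with earlier results of these data known. The text always names the 5 members and, for each list, every gene called in the ORC1 or ORC2 mean and the 2 highest and 2 lowest in the mean of the 4 mutant lines. It also names the 4 genes with the profile nearest to each member. Other genes are said to be chosen after their values were seen. Alternatives were quantile normalization, centring, other filters, the mean over probe sets, the replicate number as a block, leaving out each array, and, added later, the mean without ORC2BP8. Neighbouring genes were ordered by RefSeq (GRCh38.p14). The number of arrays limits the precision.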

Additional observations from a re-analysis of the deposited data

How the results depend on the processing

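Of 645 member values recomputed under alternatives, 560 kept their direction and their side of the threshold, 63 lost a call, 19 gained one and 3 turned their direction. The 3 were CCNA2 between ORC1 and ORC2 lines, at -0.03 with all arrays and 0.02, 0.01 and 0.05 without ORC1B14 replicate 1, ORC2B2 replicate 1 and ORC2BP8 replicate 2 (range -0.12 to 0.05 over all left-out arrays). Quantile normalization gave 1 called member in the ORC1 mean (CCNE2, 1.11, adjusted p = 0.0387) against 0, and a call of CCNE2 in the ORC2 mean (0.93). Centring gave 0 in the ORC2 mean and 0 in the mean of the 4 mutant lines, against 3 and 3. Without the filter the counts were 1 and 0, and without line ORC2BP8 the 4-line count was 0. Without each array in turn the count was 0 to 3 in the ORC2 mean, 0 to 4 in the mean of the 4 mutant lines, and 0 to 1 in ORC2BP8. It stayed at 0 in the other 5 comparisons. Leaving out an array also leaves fewer samples, and the other causes were not tested.

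Deviations of same-numbered arrays from their line means correlated at 0.0812 to 0.568 across genes, above 0 in 10 of 10 pairs of lines, and array medians were 3.94 to 3.96 in replicate 1 and 3.87 to 3.89 in replicate 2. The labels do not say what the numbers share, so the pairing is a hint from the data and not part of the design. With the replicate block 1 member was called in ORC1B14 (TYMS, 0.78, adjusted p = 0.0281), 1 in ORC1BP32 (CCNE2, 1.4, 0.025), 2 in ORC2B2 (TYMS and UHRF1), 4 in ORC2BP8 (all but CCNA2) and 3 in the ORC1 mean (CCNE2, TYMS and UHRF1), against 0, 0, 0, 1 and 0. With this block 4 were called in the ORC2 mean and 4 in the mean of the 4 mutant lines.

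Counts of all genes called moved by more than 1.5 times as follows. In ORC1B14 63 became 32 after centring, 27 without the filter and 496 with the block. In ORC1BP32 2 became 0 after quantile normalization, after centring and without the filter, and 57 with the block. In ORC2B2 36 became 22 without the filter and 251 with the block, and in ORC2BP8 101 became 58 after centring and 402 with the block. In the ORC1 mean 29 became 55 after quantile normalization and 454 with the block. In the ORC2 mean 115 became 174 after quantile normalization, 67 after centring, 71 without the filter and 570 with the block. In the mean of the 4 mutant lines 110 (45 higher, 65 lower) became 204 after quantile normalization (103 and 101), 63 after centring (17 and 46), 71 without ORC2BP8 and 709 with the block. Between ORC1 and ORC2 lines 5 became 3 with the stricter filter and 58 with the block. Without each array in turn the ranges were 1 to 82, 0 to 5, 3 to 42, 13 to 161, 0 to 53, 1 to 266, 1 to 267 and 0 to 10 in the same order.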
